A study of Mus musculus with 4 samples.

Results

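The miR-17-92 and miR-106b-25 clusters are groups of microRNA (miRNA) hairpins that are each cut from a shared primary transcript. They were followed here through 10 mouse miRNAs, chosen by name from the 705 miRNA probes of an array. These were mmu-miR-17, mmu-miR-18a, mmu-miR-19a, mmu-miR-20a, mmu-miR-19b, mmu-miR-92a and mmu-miR-92a* for the first cluster, and mmu-miR-106b, mmu-miR-93 and mmu-miR-25 for the second. The name mmu-miR-92a* also fits a strand from a related cluster on chromosome X, so its place in the first cluster is not certain. Of the 10, 7 were detected and tested, and 3 (miR-18a, miR-19a and miR-25) were not. None of the 7 passed the test between good and poor performers.

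The RNA came from the hippocampus of wild-type C57BL/6J mice, an inbred laboratory strain, all of which had been through the Morris water maze, a swimming test of spatial learning. There were 2 arrays from good performers and 2 from poor performers, and the tissue was taken straight after training. The series gives 4 mice for each group. The labels read here do not say how mice were shared out over arrays, how old they were or which score separated good from poor swimmers. The p-values therefore rest on the spread between these arrays alone, and that spread may be technical.

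miRNAs repress messenger RNAs by pairing with them, mainly through the seed, the bases near the 5′ end of the miRNA. The miR-17-92 cluster is a target of the transcription factor Myc and promotes cell proliferation and survival. The miR-17 type members of both clusters repress the cell cycle inhibitor Cdkn1a. In brain, miR-17-92 is known for its role in the proliferation of neural progenitors, and in the adult hippocampus for neurogenesis in the dentate gyrus. The miR-106b-25 cluster lies inside Mcm7, a gene for a subunit of the replicative DNA helicase, and has likewise been linked to neural stem cells.

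The mature sequences show how the members are related. All 10 names matched a RefSeq entry (GRCm38.p6), and bases 2 to 8, the seed, are in capitals. The array files name no genome build and print no oligonucleotide sequences, so these are the RefSeq miRNAs behind the names and not the spotted oligonucleotides. The first seed group carries AAAGUGC, which 7 of 1679 mature names in the RefSeq table share (0.417%).
mmu-miR-17 (mmu-miR-17-5p, chr14:115043684-115043706, + strand): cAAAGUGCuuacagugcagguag
mmu-miR-20a (mmu-miR-20a-5p, chr14:115044183-115044205, + strand): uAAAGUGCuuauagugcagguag
mmu-miR-106b (mmu-miR-106b-5p, chr5:138165787-138165807, - strand): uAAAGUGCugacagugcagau
mmu-miR-93 (mmu-miR-93-5p, chr5:138165574-138165596, - strand): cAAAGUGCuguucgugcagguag
The miR-18a seed differs from that of miR-20a by G4A, counted from the 5′ end of miR-18a.
mmu-miR-18a (mmu-miR-18a-5p, chr14:115043867-115043889, + strand): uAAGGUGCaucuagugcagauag
The miR-19 members share GUGCAAA, and differ from each other at 1 base, U11C in miR-19a against miR-19b.
mmu-miR-19a (mmu-miR-19a-3p, chr14:115044048-115044070, + strand): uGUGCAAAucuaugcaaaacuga
mmu-miR-19b (mmu-miR-19b-3p, chr14:115044358-115044380, + strand): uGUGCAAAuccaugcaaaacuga
The last group carries AUUGCAC and joins the final hairpins of both clusters.
mmu-miR-92a (mmu-miR-92a-3p, chr14:115044476-115044496, + strand): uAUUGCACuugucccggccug
mmu-miR-25 (mmu-miR-25-3p, chr5:138165332-138165353, - strand): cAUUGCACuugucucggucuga

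The name miR-92a* stands for the strand opposite miR-92a in its hairpin, and 2 hairpins give the same miR-92a. Their opposite strands differ, at 5 of 22 compared bases, and both are shown because the files do not say which of them the array measured.
mmu-miR-92a-1-5p (chr14:115044437-115044459, + strand): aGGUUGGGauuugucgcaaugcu
mmu-miR-92a-2-5p (chrX:52741892-52741913, - strand): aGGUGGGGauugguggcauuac
The first lies in the miR-17-92 cluster. The second lies in miR-106a-363, a paralogous cluster on chromosome X, which also encodes the identical mature miR-92a (chrX:52741854-52741874, - strand) and miR-19b (chrX:52741991-52742013, - strand). Values of miR-19b and miR-92a may therefore hold RNA from both clusters, and those of miR-92a* may belong to either.

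In the RefSeq gene table, all 3 hairpins of miR-106b-25 lie within Mcm7. Of the 6 hairpins of miR-17-92, those of miR-19b and miR-92a overlap the host transcript Mir17hg as annotated there, and the other 4 do not. The extent of the shared primary transcript was not examined here. The exon structure of both hosts was not used here. Near-identical relatives were also on the array: miR-106a differs from miR-17 at 1 base (U10A) and miR-20b at 2 bases (U10C and C12U), while miR-20a differs from miR-17 by C1U and C12U. Whether the array told such relatives apart was not tested, so a value for any of them may include its neighbours.

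Each miRNA had 3 spots per array, and each spot a raw intensity (linear brightness) and a deposited flag of 0 or -50. The flag did not follow brightness strictly. The dimmest miRNA spot at flag 0 read 71 and 60 on the good-performer arrays and 70 and 55 on the poor-performer arrays. The brightest miRNA spot at flag -50 read 87 and 87 on the good-performer arrays and 88 and 86 on the poor-performer arrays. A miRNA was tested if it had 2 or 3 spots at flag 0 on each array of good performers, of poor performers or of both. The 36 blank spots averaged 63.0 and 64.4 on the good-performer arrays and 64.0 and 63.9 on the poor-performer arrays, and the brightest blank read 75. By this rule 316 of 705 probes were tested, with 320 and 330 detected on the good-performer arrays and 310 and 322 on the poor-performer arrays. The labelled tissue showed its markers: all 5 brain miRNAs listed for it were detected. The neuronal miR-124 read 20431 to 23072 on the 4 arrays. The liver miRNA miR-122 read 59.7 to 62.3, among the blanks. It was listed together with the muscle miRNAs miR-1, miR-133a and miR-206, and those 3 were tested. Of these, miR-1 was detected on all 4 arrays. miR-133a passed through good performers only. It read 83.7 and 74.3 there, and 70.7 and 72.3 in poor performers, where no spot had flag 0. miR-206 passed through poor performers only, at 82.0 and 83.0, against 76.7 and 86.0 in good performers. On that list only miR-122 was not tested.

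The 3 undetected members lay at or near blank level. The 3 spots of miR-18a, which is processed from the second hairpin of miR-17-92, averaged 65.3 and 65.7 in good performers and 63.7 and 60.0 in poor performers, and no spot had flag 0. For miR-19a the averages were 67.3 and 64.3 in good performers and 65.3 and 63.7 in poor performers, again with no spot at flag 0. These values fall inside the range of the blanks, so neither group gives a level for these members. miR-25 stood slightly higher, at 77.7 and 76.0 in good performers and 69.7 and 77.0 in poor performers. It had 2 and 1 spots at flag 0 on the good-performer arrays and 0 and 1 on the poor-performer arrays, so 1 array of 4 had the 2 spots needed and miR-25 was not among the tested probes.

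**Figure D1:**
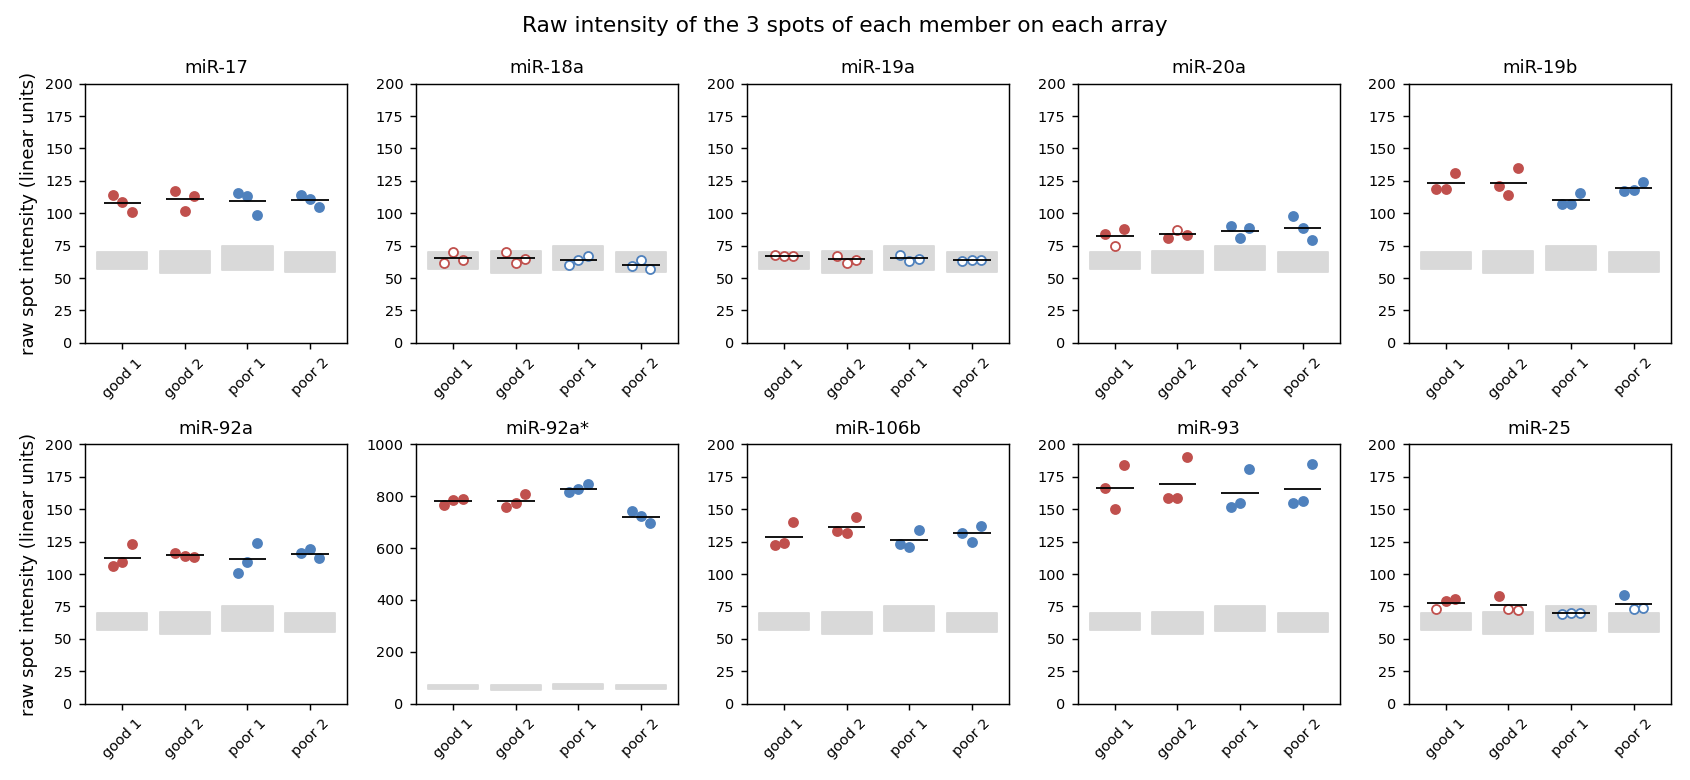
Raw spot intensity in linear units for each of the 10 miRNAs on the arrays of good (red) and poor (blue) performers. Filled points have flag 0 and open points flag -50, black lines are means over the 3 spots, and grey boxes span the lowest to highest blank spot. The intensity axis of miR-92a* differs from the others. miR-18a and miR-19a sit inside the grey boxes, and miR-92a* is far above them.

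The 7 detected members were measured on all 4 arrays, so none entered through 1 group alone. For the comparison, raw intensity was corrected for background, taken to log2 and quantile-normalized over the miRNA spots, and the 3 spots were averaged. A log2 fold change is good over poor performers, and a positive one means higher in good performers. Differences were tested with limma over all 316 tested probes, with Benjamini-Hochberg adjustment and a threshold of 0.05.

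None of the 7 members was called. For 3 members good performers had the higher mean, and for 4 the lower. In the same fit 16 of the 316 probes were called (5.06%), 10 higher and 6 lower in good performers. At an unadjusted p under 0.05 the count was 1 of 7 members (miR-20a) and 66 of 316 probes (20.9%). After normalization, the arrays of the 2 groups did not overlap for 5 of the 7 members, against 160 of 316 probes (50.6%). Of those 5, miR-19b and miR-106b were higher and miR-17, miR-20a and miR-92a lower in good performers, though with 3 other scalings all 7 members were below 0. In raw intensity the array averages of the groups overlapped for miR-17, miR-92a and miR-106b. The median log2 fold change of the 7 was -0.038, against -0.0072 over all tested probes, and the values ran from -0.12 to 0.066. That median was -0.020 without good performers replicate 2 and 0.016 without poor performers replicate 1, and dropping any 1 array left no probe called by limma, with 40 to 59 at an unadjusted p under 0.05. The members' absolute log2 fold change had a median of 0.045, against 0.052 over all tested probes.

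miR-20a, of the seed group of miR-17, had the lowest p of the members. Its raw intensity was 82.3 and 83.7 in good performers, against 86.7 and 88.7 in poor performers. Both good-performer arrays were below both poor-performer arrays, and all 4 averages were above the brightest blank spot but close to it. After normalization its log2 intensity averaged 6.36 ± 0.027 in good performers and 6.48 ± 0.0074 in poor performers (SD, n = 2 each). The log2 fold change was -0.12 ± 0.030 (SE), which is 0.920-fold with a 95% interval of 0.869 to 0.975, and it did not pass (limma adjusted p = 0.154, unadjusted p = 0.016). Its size depended on the offset of the background correction: the log2 fold change was -0.28 with an offset of 1 and -0.044 with an offset of 200, and neither passed (limma adjusted p = 0.099 and 0.218). After normalization all 3 spots had the lower value in good performers, by 0.23, 0.12 and 0.012 log2 units. In raw intensity the spot with the smallest of these differences overlapped between groups. It read 88 and 83 in good performers and 89 and 79 in poor performers. In good performers 2 of the 3 spots on each array had flag 0, and in poor performers all 3 did.

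miR-17, which heads the cluster and shares the seed of miR-20a, had nearly the same raw intensity on every array. It read 108 and 111 in good performers and 109 and 110.0 in poor performers. In log2 units after normalization it averaged 6.76 ± 0.0080 in good performers and 6.80 ± 0.018 in poor performers (SD, n = 2 each). The groups did not overlap, but by little: the log2 fold change was -0.045 ± 0.028 (SE), or 0.969-fold with an interval of 0.918 to 1.02 (limma adjusted p = 0.471). After normalization, 2 of its 3 spots were lower and 1 was higher in good performers.

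The miR-106b-25 members with this seed were close to no difference. miR-106b read 129 and 136 in good performers and 126 and 131 in poor performers, with a difference of 0.019 ± 0.028 on the log2 scale (SE; limma adjusted p = 0.754). Its interval ran from 0.961-fold to 1.07-fold. The difference was 0.030 without good performers replicate 1 and 0.0075 without good performers replicate 2. miR-93 read 167 and 169 in good performers and 163 and 165 in poor performers. Its normalized means were 7.38 ± 0.020 in good performers and 7.37 ± 0.022 in poor performers (SD, n = 2 each), a log2 fold change of 0.00063 ± 0.030 (SE; limma adjusted p = 1). After normalization the arrays of the groups overlapped, though in raw intensity both good-performer averages were the higher. The interval of 0.944-fold to 1.06-fold leaves room for changes of that size in either direction. Its log2 fold change was below 0 without good performers replicate 1 or poor performers replicate 2 (-0.013 and -0.015) and above 0 without either of the other arrays.

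miR-19b, the detected member of the miR-19 seed group, was the highest member by fold change. It read 123 and 123 in good performers and 110.0 and 120 in poor performers. Poor performers replicate 1 was the dimmest array, and the second poor-performer array nearly met the good performers: the normalized log2 values were 6.96 and 6.90 in good performers and 6.83 and 6.90 in poor performers. Its log2 fold change came to 0.066 ± 0.041 (SE; limma adjusted p = 0.471), and all 3 spots were higher in good performers, by 0.011 to 0.12. It was 0.038 without good performers replicate 1, 0.032 without poor performers replicate 1 and 0.099 without poor performers replicate 2.

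miR-92a, the last hairpin product of the cluster, read 113 and 114 in good performers and 111 and 116 in poor performers. The normalized means were 6.81 ± 0.025 in good performers and 6.85 ± 0.011 in poor performers (SD, n = 2 each), and the log2 fold change of -0.038 ± 0.030 (SE) did not pass (limma adjusted p = 0.560). Its interval ran from 0.920-fold to 1.03-fold. With good performers replicate 2 left out, the value was -0.020.

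miR-92a* gave a raw intensity of 781 and 782 in good performers, against 830 and 720 in poor performers. The good-performer arrays lay between the poor-performer arrays, so the groups overlapped. Its log2 mean was 9.55 ± 0.040 in good performers and 9.63 ± 0.16 in poor performers (SD, n = 2 each). The log2 fold change of -0.077 ± 0.088 (SE; limma adjusted p = 0.689) had the widest interval of the 7, 0.801-fold to 1.12-fold. Its direction depended on the arrays kept and on the scaling. The log2 fold change was 0.038 without poor performers replicate 1 and -0.19 without poor performers replicate 2. With every array kept, it was also positive with 75th percentile scaling over all miRNA probes (0.0049) and without normalization (0.014). It was negative in 16 of the 19 alternative settings.

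**Figure D2:**
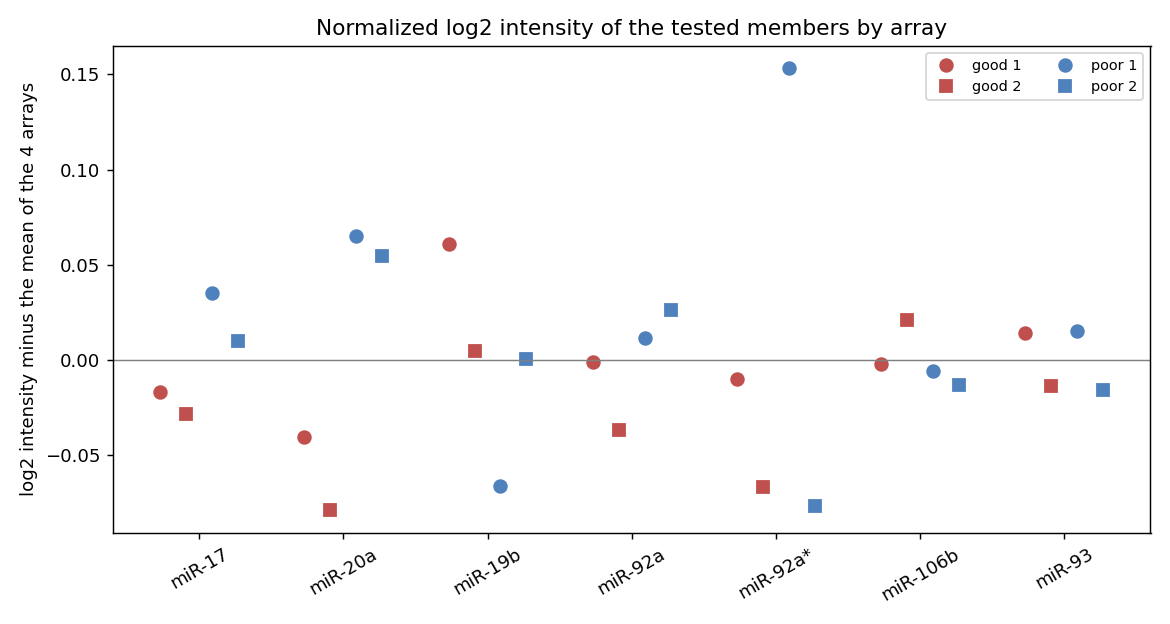
Normalized log2 intensity of the 7 tested members on each array, minus the member's own mean over the 4 arrays, with good performers in red and poor performers in blue. The largest departure is miR-92a* on poor performers replicate 1. Both red points lie below both blue points for miR-17, miR-20a and miR-92a, and above them for miR-19b and miR-106b.

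**Figure D3:**
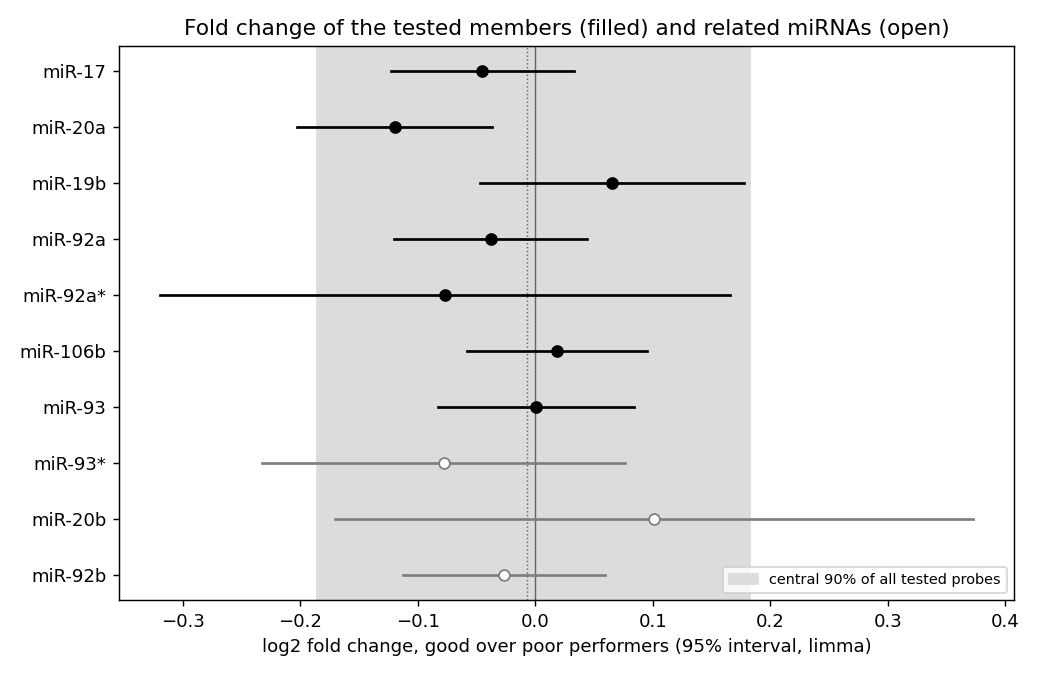
Log2 fold change of good over poor performers (points) with 95% intervals from limma (lines) for the 7 members (filled) and 3 related miRNAs (open). The grey band holds the central 90% of all tested probes and the dotted line is their median. The interval of miR-20a alone lies to 1 side of 0, before adjustment for 316 tests.

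With 2 arrays a group, an exact permutation test cannot give a two-sided p under 0.333, and each limma test rests partly on a variance shared over probes. The SD between arrays of a group, pooled over both groups, had a median of 0.020 log2 units over the 7 members, against 0.042 over all tested probes. It was 0.012 for miR-106b and 0.12 for miR-92a*. After normalization, the 3 spots of a member moved in the same direction for 3 of 7 members (miR-20a, miR-19b and miR-92a*). The count over all tested probes was 164 of 316 (51.9%). In raw intensity, the good-performer values of each miR-92a* spot lay between its poor-performer values.

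**Figure D4:**
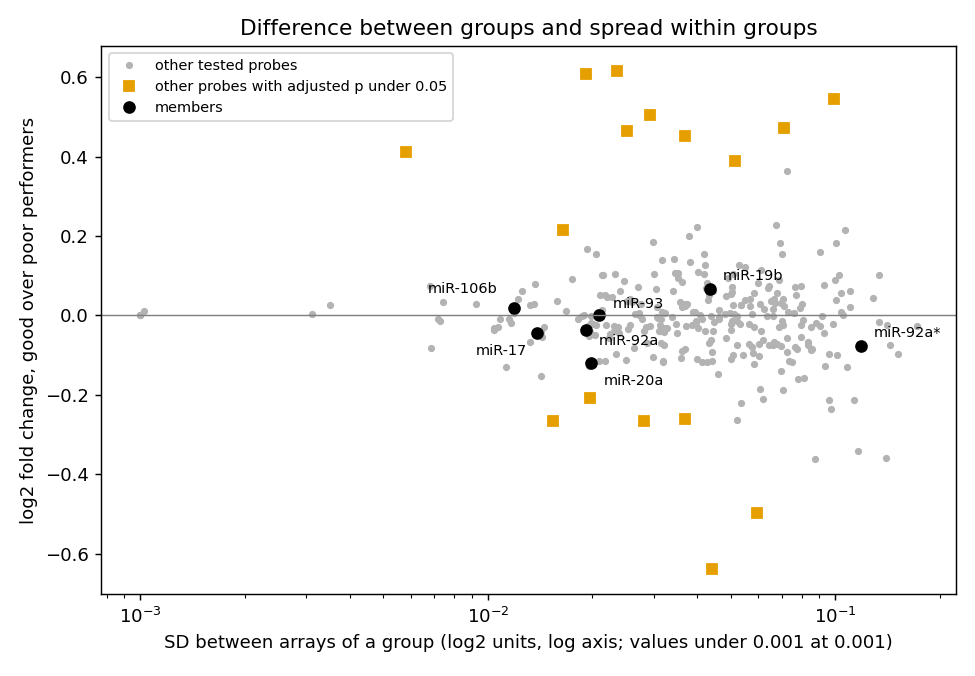
Log2 fold change of good over poor performers against the SD between arrays of a group (log axis) for all 316 tested probes. Members (black) lie between -0.12 and 0.066 on the vertical axis, and the 16 called probes (orange squares), none of them a member, lie farther from 0.

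The choice of scaling set the sign of several members. All 7 were below 0 in the authors' normalized table, with 75th percentile scaling over the probes detected on all arrays and with scaling to spike-in controls, but there the median of all tested probes was below 0 too, at -0.083, -0.0998 and -0.11. Measured from that median, miR-20a was at -0.11 as reported and at -0.13, -0.12 and -0.12 in those 3 settings, and over the 16 settings with all 4 arrays it ran from -0.27 (offset 1) to -0.041 (offset 200). miR-20a was called in 1 of 19 alternative settings, with 75th percentile scaling over the probes detected on all arrays (log2 fold change -0.22, limma adjusted p = 0.0081, 66 probes called in all). Over the 16 settings with all 4 arrays, miR-19b ran from 0.033 to 0.12 above the median of all tested probes, and miR-17 from 0.016 to 0.070 below it, its log2 fold change less that median lying between -0.070 and -0.016. Called probes split 10 higher to 6 lower as reported, 6 to 31 in the authors' normalized table, 11 to 4 in it with arrays centred, 11 to 55 and 15 to 5 with 75th percentile scaling over the detected and over all probes, 10 to 21 with spike-in scaling and 12 to 3 on values that were not normalized.

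**Figure D5:**
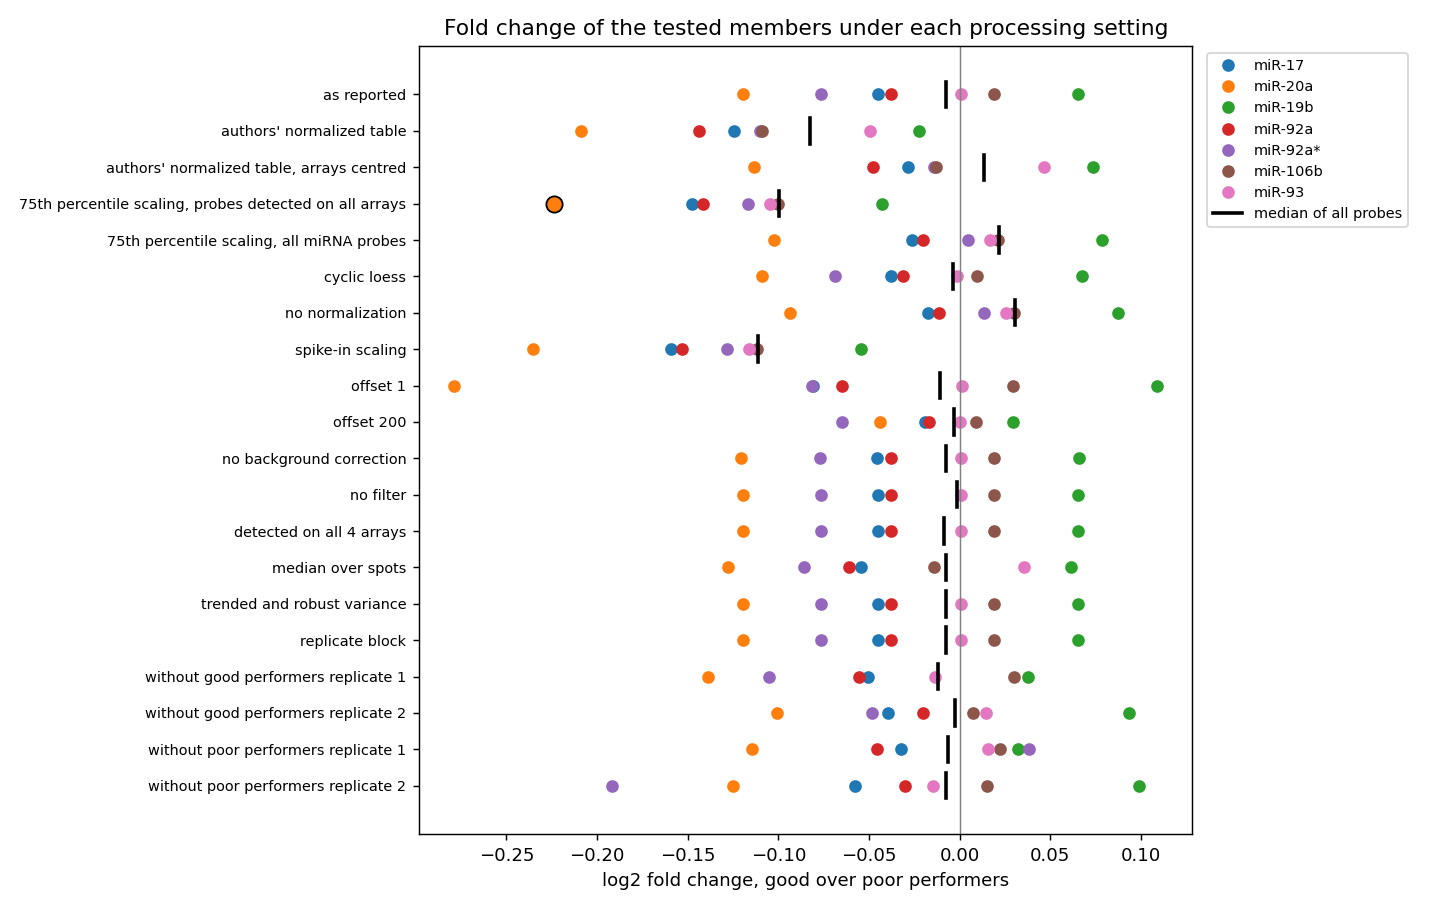
Log2 fold change of good over poor performers for the 7 members (coloured points) as reported and under 19 other settings, with the median of all tested probes as a black bar. The larger, outlined point is the only member call, miR-20a at -0.22. The points and the bar shift together between scalings.

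In the authors' deposited table, 8 of the 10 members had a log2 ratio of good over poor performers. That ratio was -0.21 for miR-20a, -0.14 for miR-92a, -0.12 for miR-17, -0.11 for miR-92a*, -0.11 for miR-106b, -0.049 for miR-93, -0.048 for miR-25 and -0.023 for miR-19b. The median over all 383 probes of the authors' deposited table was -0.082. The 2 members without an entry in the authors' deposited table were miR-18a and miR-19a.

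Other strands and relatives of the same hairpins were mostly undetected. Of 6 other-strand probes on the array 1 was tested, miR-93*, the strand opposite miR-93. It read 86.7 and 82.3 in good performers and 86.3 and 87.7 in poor performers, with a log2 fold change of -0.078 (limma adjusted p = 0.541). The 5 others (miR-17*, miR-18a*, miR-19a*, miR-20a* and miR-106b*) had no spot at flag 0 and ranged from 54 to 73. Of 5 probes for the X-linked miR-106a-363 cluster 1 was tested, miR-20b, which shares the seed of miR-17. It read 104 and 97.0 in good performers and 98.3 and 85.7 in poor performers, with a log2 fold change of 0.10 ± 0.098 (SE; limma adjusted p = 0.623), and the groups overlapped. miR-106a had 2 spots at flag 0 on 1 array of each group and was not tested, at 81.7 and 73.3 in good performers and 83.3 and 74.3 in poor performers. miR-18b, miR-20b* and miR-363 lay at blank level. Of the 3 remaining miRNAs with the seed of miR-92a, miR-92b was tested, at 165 and 165 in good performers and 162 and 168 in poor performers (log2 fold change -0.026, limma adjusted p = 0.696), and miR-32 and miR-367 were undetected.

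The 3 tested non-members closest to the members' median profile over the 4 arrays were miR-92b, miR-34b-5p and miR-125b-3p. The measure was the root-mean-square distance between log2 values centred on each probe's own mean, and it was 0.0074, 0.0086 and 0.0098 log2 units. miR-17, miR-92a and miR-93 themselves had 8 non-members closer to that profile than they were, and miR-92a* had 247. The profile was nearly flat, at -0.0019 and -0.028 in good performers and 0.015 and 0.00077 in poor performers.

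No listed marker miRNA was called. Of the listed miRNAs, 2 of 3 for red blood cells, 1 of 4 for immune cells, 4 of 4 for vessels, 4 of 5 for choroid plexus and ependyma and 3 of 4 for liver and muscle were tested. Their median log2 fold changes were -0.072, -0.014, -0.058, -0.023 and -0.061, and that of the 5 brain miRNAs was 0.0097. At an unadjusted p under 0.05 there were 2 brain miRNAs and 1 vessel miRNA, and none from the other 4 lists. The liver and muscle miRNAs that were tested were the muscle miRNAs miR-1, miR-133a and miR-206. Of these, miR-133a (log2 fold change 0.10) passed the filter through good performers alone. miR-206 (log2 fold change -0.061) passed through poor performers alone. Each entered through the group where its mean was higher, so the median of that list depends on the filter. In tissue of mixed cells, fewer cells of a type and less miRNA per cell cannot be told apart.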

How the data were processed

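Hippocampal RNA labelled with Cy5 was hybridised to 4 single-colour arrays. The deposited raw intensity is unnormalized, per the file headers, and each spot has a deposited flag score of 0 or -50. The authors' normalized intensity for 383 probes, and their log2 ratio, come from a second table, and no source used here gives the method; the series value table repeats it. The ratio equalled log2 of the group means within 4.93e-05.

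Raw intensity was corrected with normexp (offset 50, fitted on all spots). Its log2 was quantile-normalized over 2115 miRNA spots and averaged over 3 spots (limma 3.58.1, R 4.3.3). The offset understates changes of dim probes, and the number of arrays limits precision. Groups came from the performance label. The contrast of good over poor performers was fitted with lmFit and eBayes, two-sided, across 316 probes, without covariates, and the code was tested on simulated data. Arrays of a group differed by 2.68 (good) and 2.34 (poor) times the variance that spot noise predicts, over 300 probes, and were counted as 2. RefSeq sequences were matched by name.

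The members, lists and tests were chosen with earlier results of these data known. All members were named, related lists in full or as counts, and the 3 most alike non-members by distance. Alternatives covered scaling, background, filter, spot average, variance model, replicate block and leaving out each array.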

Additional observations from a re-analysis of the deposited data

How the results depend on the processing

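No member was called as reported or in 18 of 19 alternatives, and 1 (miR-20a, log2 fold change -0.22) was called with 75th percentile scaling over the probes detected on all arrays. Against 16 probes in all, 66 were called there, 30 under a trended and robust variance, 7 with offset 1, 31 with spike-in scaling, 6 with the median over spots, 37 in the authors' normalized table and 0 to 0 when 1 array was left out (limma; 40 to 59 at an unadjusted p under 0.05), where fewer samples remain and a group of 1 array borrows its spread from the other. The median log2 fold change of the members, -0.038, was -0.12 with that percentile scaling, -0.11 in the authors' table, -0.13 with spike-in scaling, -0.065 with offset 1, -0.017 with offset 200, 0.0049 with percentile scaling over all probes, 0.014 without normalization, 0.0057 without a filter (10 members) and -0.051 to 0.016 without 1 array. Why counts and medians moved between settings was not tested for any of them. miR-17, miR-20a and miR-92a were below 0 in all 19 alternatives, miR-92a* in 16, and miR-19b, miR-106b and miR-93 were above 0 in 16, 14 and 13. Without poor performers replicate 1, miR-92a* was 0.038. With the replicate block, 13 probes and no member passed (miR-20a, adjusted p = 0.163). Same-numbered arrays deviated together with a correlation of 0.179, and 2 pairs are too few to treat the numbers as pairing. Dim members lie near blanks, where a change in RNA moves intensity less than in proportion.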

Other observations

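The same 1 of the 3 spots was the brightest on all 4 arrays for 4 of the 7 tested members (miR-17, miR-19b, miR-106b and miR-93), and for 139 of 316 tested probes (44%). For miR-19b, miR-106b and miR-93 it was the last spot listed. Differences between the spots of a probe thus recur from array to array and are not all independent noise.

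Without a filter on dim probes, the undetected members had log2 fold changes of 0.063 for miR-18a, 0.037 for miR-25 and 0.011 for miR-19a (limma adjusted p = 0.699, 0.900 and 0.979).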
